A study of Mus musculus with 3 samples.

Results

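The 10 genes described here (C1qa, C1qb, C1qc, Csf1r, Mertk, Axl, Mrc1, Lyz2, Vcan and Ly6c2) are widely used to recognise monocytes and macrophages, and were taken by name from an expression table of 23348 usable entries, where all 10 had a line. They were measured by RNA sequencing of sorted DN1 thymic cells, the lineage-negative, CD44-positive, CD25-negative gate in which the earliest thymic progenitors lie beside other cells without lineage markers. Mice of the mixed 129sv/C3H strain were used at postnatal day 19. The wild type library pooled 2 mice. The gl/gl library pooled 3 osteopetrotic grey-lethal mice, which are Ostm1-/-, and the third library pooled 3 gl/gl mice with a transgenic CD2-Ostm1 construct (CD2-Ostm1 gl/gl), in which CD2 sequences, active in lymphoid cells, are the stated driver of Ostm1. With 1 library per genotype there is no spread between replicates and no test, so every difference is one between 3 pools of cells.

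Monocytes leave the bone marrow with high Ly6c2 and can become macrophages in tissues. Tissue macrophages of the thymus clear the many thymocytes that die during selection, and C1q, the receptors Mertk and Axl and the lectin Mrc1 are part of the equipment with which macrophages bind dying cells, debris and glycoproteins. Csf1r, the receptor of CSF1 and IL-34, maintains most of these cells. Osteopetrosis, the disease of grey-lethal mice, is a failure of osteoclasts, which belong to the same CSF1-dependent lineage.

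Values are FPKM, the number of sequenced fragments scaled for transcript length and library size. They are compared by subtracting log2(FPKM + 1), which makes differences of low genes look smaller than they are, and a gene was counted as higher or lower at a difference of 1 or more, 2-fold on this scale. Ostm1 was at 19.6 FPKM in wild type and listed at 0 in gl/gl, with 5.35 in CD2-Ostm1 gl/gl. Cd44, required by the gate, was at 66.4, 109 and 64.7 FPKM in the same order, and Il2ra, the gene of the excluded CD25, at 5.94, 11.7 and 4.03. Judged roughly from the smallest values above 0, a 2 kb transcript at 5 FPKM had 434, 272 and 251 fragments in the 3 libraries, so the wild type library was the deepest. The gl/gl library stood apart in 2 ways that touch every comparison with it: S100a8 of granulocytes was at 14728 FPKM against 109.7 and 103 in wild type and CD2-Ostm1 gl/gl, and the Y-linked Eif2s3y was at 59.8 FPKM against 0.0338 and 0.0395. The X-linked Xist was at 0.184 FPKM in gl/gl against 116 in wild type and 235 in CD2-Ostm1 gl/gl. By these sex-linked genes the gl/gl pool differed in sex from the others, so sex and genotype cannot be told apart in comparisons with gl/gl. In pooled cells, fewer cells of a type and less RNA per cell cannot be told apart.

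All 10 genes were highest in gl/gl, an order found in 39.3% of the 12849 genes with at least 1 FPKM in at least 1 library. The difference from wild type was greatest for Lyz2, Ly6c2 and Vcan and smallest for Csf1r. The C1q genes had their lowest values in CD2-Ostm1 gl/gl, where all chains were below wild type, whereas Lyz2 and Ly6c2 were near wild type there and Vcan was above it. Mertk and Mrc1 were also below wild type in CD2-Ostm1 gl/gl, at 0.211 and 0.348 times its level, but at low values in both libraries. All 10 genes passed the 1 FPKM filter, but Mrc1, Mertk and Vcan did so through the gl/gl library alone. Over all 12849 genes, 8.16% were higher and 6.15% lower in gl/gl than in wild type. For CD2-Ostm1 gl/gl these shares were 1.34% and 1.67% against wild type, and 6.47% and 9.82% against gl/gl. Every count of genes in the lists below stands beside these shares.

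**Figure D1:**
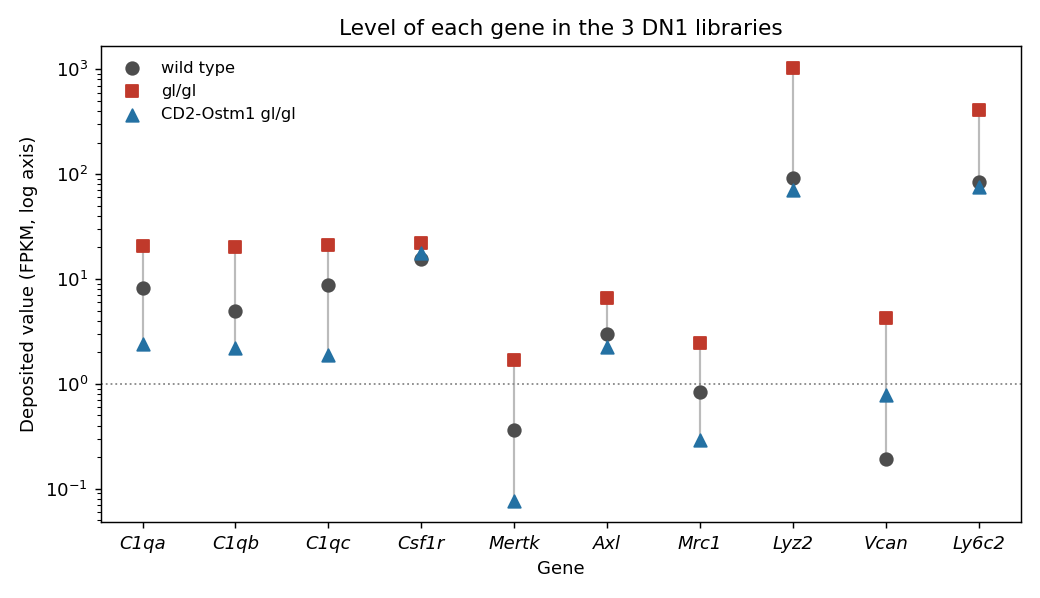
Deposited level of each gene (FPKM, log axis) in each of the 3 libraries, with 1 point per library, a grey line joining the lowest and highest value and a dotted line at 1 FPKM. The gl/gl point is the highest for all 10 genes, and the CD2-Ostm1 gl/gl point is the lowest for all except Csf1r and Vcan.

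C1qa, C1qb and C1qc encode the 3 chains of C1q, the recognition protein of the classical complement pathway, which binds antibody on a target as well as dying cells. The genes lie side by side on chromosome 4 within 18.7 kb (136880145 to 136898844, mm10), in the order C1qb, C1qc, C1qa, and all are transcribed from the minus strand, each with 3 exons. The 250 bases before the RefSeq start sites of C1qb (chr4:136886201-136886450, GRCm38.p6, minus strand) and C1qc (chr4:136892915-136893164, minus strand) are shown because the neighbouring genes had the same order of libraries. Capitals mark the letters GAGGAAGT, in either orientation, a form of the site bound by the myeloid factor PU.1.
C1qb: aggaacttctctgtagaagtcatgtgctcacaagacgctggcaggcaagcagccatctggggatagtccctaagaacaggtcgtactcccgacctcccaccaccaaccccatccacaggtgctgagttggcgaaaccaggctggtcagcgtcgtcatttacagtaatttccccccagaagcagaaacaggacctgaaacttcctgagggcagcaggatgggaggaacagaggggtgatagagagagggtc
C1qc: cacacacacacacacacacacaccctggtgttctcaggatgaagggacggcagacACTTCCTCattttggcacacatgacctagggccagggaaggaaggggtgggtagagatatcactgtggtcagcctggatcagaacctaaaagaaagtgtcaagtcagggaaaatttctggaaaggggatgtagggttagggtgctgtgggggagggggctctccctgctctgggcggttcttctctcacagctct
The C1qc window held the PU.1 letters in the reverse orientation, printed as ACTTCCTC, at -195 to -188 from the start, and the C1qb window did not hold them. Over all RefSeq promoter windows, which reach from 250 bases before to 50 after a start, 3.20% held these letters. A match describes the sequence only, and the aligned C1qb and C1qc stretches were identical at 43.5% of positions.

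C1qa was at 8.12 FPKM in wild type and 20.7 in gl/gl, with 2.38 in CD2-Ostm1 gl/gl. C1qb was at 4.97, 20 and 2.18 FPKM, and C1qc at 8.67, 21.3 and 1.89 FPKM in the same order. Each chain was thus highest in gl/gl and lowest in CD2-Ostm1 gl/gl. Against wild type, the gl/gl differences were 1.25 for C1qa, 1.81 for C1qb and 1.2 for C1qc on the log2 scale. The CD2-Ostm1 gl/gl differences from wild type were -1.43, -0.91 and -1.74, so C1qa and C1qc were at least 2-fold lower, as were 1.67% of all measured genes, and C1qb was not. Between CD2-Ostm1 gl/gl and gl/gl the differences were -2.69, -2.72 and -2.95. The low values rest on few fragments, roughly 56 for C1qa, 54 for C1qb and 53 for C1qc in CD2-Ostm1 gl/gl.

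The proportions of the chains also varied. C1q is assembled from equal numbers of the A, B and C chains, and in gl/gl the transcripts were nearly even, the highest chain being 1.06 times the lowest. This ratio was 1.26 in CD2-Ostm1 gl/gl. In wild type it was 1.74, as C1qb stood at 0.574 of C1qc. The summed level of the chains was 21.8 FPKM in wild type and 62.0 in gl/gl, with 6.45 in CD2-Ostm1 gl/gl.

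Neither measured neighbour of the C1q cluster had this order. The table held 3 other entries that start within 250 kb of it, Ephb2, Epha8 and Zbtb40. Ephb2, an Eph receptor tyrosine kinase, was at 8.51 FPKM in wild type and 1.33 in gl/gl, with 9.86 in CD2-Ostm1 gl/gl, so that gl/gl was its lowest library. Zbtb40, a zinc finger gene, was at 5.23, 5.40 and 5.41 FPKM, and Epha8 was too near 0 in all libraries for an order to be read.

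The proteases that complete the C1 complex were near the limit of detection. C1ra was at 0.299 FPKM in wild type and 0.646 in gl/gl, with 0.231 in CD2-Ostm1 gl/gl. C1s was at 0.104, 0.565 and 0.0445 FPKM. C4b, the next component of the classical pathway, was at 0.00833, 0.286 and 0.0275 FPKM. C3, on which all complement pathways converge, was higher in gl/gl, with 4.58, 43.5 and 2.24 FPKM. Of the 9 other measured complement components, 4 were higher in gl/gl than in wild type and none lower, with a median difference of 0.89 beside -0.03 over all measured genes. The higher ones were C3, Fcnb (a ficolin of the lectin pathway), C1rl and Cfb (factor B of the alternative pathway). None was higher in CD2-Ostm1 gl/gl than in wild type and 1 was lower, Cfd, factor D of the alternative pathway, with 0.0514 FPKM against 1.42. Against gl/gl, 6 of the 9 were lower in CD2-Ostm1 gl/gl and 1, Masp2, a lectin pathway protease, was higher.

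Complement receptors and regulators differed in both directions. Of 15 measured, 7 were higher and 1 lower in gl/gl than in wild type (median 0.93). C5ar1, the receptor of the C5a peptide, was at 0.173 FPKM in wild type and 22.7 in gl/gl, with 0.344 in CD2-Ostm1 gl/gl. Itgam, a subunit of complement receptor 3, was at 5.72, 75.2 and 6.35 FPKM. Both belong to granulocytes as well as monocytes, and the S100a8 values above apply here too. Cd93, once described as a C1q receptor and also found on early progenitors, was the lower gene, with 44.4 FPKM in wild type and 6.28 in gl/gl, then 50.1 in CD2-Ostm1 gl/gl. None of the 15 passed 2-fold in CD2-Ostm1 gl/gl against wild type (median 0.10), while 8 were lower and 1 was higher than in gl/gl (median -1.18).

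Csf1r (chromosome 18, 61105572 to 61131139, plus strand, 21 exons) differed least among the 10 genes. It was at 15.5 FPKM in wild type and 22 in gl/gl, with 17.6 in CD2-Ostm1 gl/gl. The difference was 0.48 for gl/gl and 0.17 for CD2-Ostm1 gl/gl against wild type, and -0.31 between CD2-Ostm1 gl/gl and gl/gl, all below 2-fold. Related to Csf1r within each library, the other genes did not keep a fixed proportion: the ratio of C1qc to Csf1r was 0.559 in wild type and 0.965 in gl/gl, with 0.107 in CD2-Ostm1 gl/gl. The ratio of Lyz2 to Csf1r was 5.92, 47.1 and 4.05.

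Pdgfrb, the receptor gene next to Csf1r, had the opposite order, with 46.8 FPKM in wild type and 1.53 in gl/gl, then 54.6 in CD2-Ostm1 gl/gl. Camk2a, a kinase gene farther out on the same side, was at 12.2, 1.08 and 16.9 FPKM. These were the 2 genes lower in gl/gl among the 6 measured neighbours of Csf1r, and none was higher.

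The ligands of Csf1r were low. Csf1 was at 1.76 FPKM in wild type and 2.47 in gl/gl, with 1.1 in CD2-Ostm1 gl/gl, and Il34 at 0.0880, 0.245 and 0.233. Of the 11 other measured genes of the CSF1 receptor axis and related receptors, 5 were higher and none lower in gl/gl than in wild type (median 0.63). The receptors of G-CSF and GM-CSF were among them: Csf3r was at 1.57, 35.1 and 2.29 FPKM, and Csf2rb at 7.59, 25.9 and 6.94. The list's median difference between CD2-Ostm1 gl/gl and wild type was -0.22. Against gl/gl, 6 of the 11 were lower in CD2-Ostm1 gl/gl and none higher (median -1.06).

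Mertk and Axl are TAM receptor tyrosine kinases, which bind dying cells through the bridging proteins Gas6 and protein S. Mertk (chromosome 2, 128698997 to 128802188, 19 exons) was at 0.364 FPKM in wild type and 1.67 in gl/gl, with 0.0769 in CD2-Ostm1 gl/gl. The last value stands for roughly 9 fragments, against 72 in wild type and 207 in gl/gl. As plain ratios of FPKM, Mertk was 4.58 times the wild type level in gl/gl and 0.211 times in CD2-Ostm1 gl/gl, but on the log2(FPKM + 1) scale the differences were 0.97 and -0.34, both below 2-fold. Axl (chromosome 7, 25756500 to 25788733, 20 exons) was at 2.97, 6.53 and 2.24 FPKM, with differences of 0.92 and -0.29. Both receptors passed 2-fold between CD2-Ostm1 gl/gl and gl/gl, with -1.31 for Mertk and -1.22 for Axl. Axl was the more abundant receptor throughout, and the ratio of Mertk to Axl was 0.122, 0.255 and 0.0343 in the 3 libraries in the same order.

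Tyro3, the remaining TAM receptor, was at 4.13 FPKM in wild type and 6.04 in gl/gl, with 3.72 in CD2-Ostm1 gl/gl and passed 2-fold in no comparison. Gas6 was at 2.22, 8.22 and 0.576 FPKM, with differences of 1.52 for gl/gl and -1.03 for CD2-Ostm1 gl/gl against wild type. Gas6 thus had the order of the C1q genes, and so did Tyro3, Pros1 and Lgals3. Pros1, which encodes protein S, was at 2.64, 3.68 and 1.17 FPKM. Lgals3, galectin-3, also named as a Mertk ligand, was at 178, 371 and 58.1 FPKM. Of these 4 measured TAM genes, 2 were higher in gl/gl than in wild type (median 0.76), and 2, Lgals3 and Gas6, were lower in CD2-Ostm1 gl/gl than in wild type (median -0.89 beside -0.04 over all measured genes). In CD2-Ostm1 gl/gl against gl/gl, 3 were lower (median -1.83 beside 0.02).

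The wider set of genes for the uptake of apoptotic cells had 26 other measured members. In gl/gl 9 of them were higher than in wild type and 1 lower (median 0.50), and in CD2-Ostm1 gl/gl 2 were higher and 1 lower (median -0.16). Between CD2-Ostm1 gl/gl and gl/gl 9 were lower and 1 was higher (median -0.71). Anxa1, annexin A1, was among the genes that differed most, with 29.8 FPKM in wild type and 601 in gl/gl, then 21.9 in CD2-Ostm1 gl/gl. Cd300lf, a receptor of phosphatidylserine, was at 0.667, 37.1 and 2.44 FPKM. Stab2, a scavenger receptor that also binds phosphatidylserine, was the lower gene in both comparisons with wild type, with 17.1, 4.0 and 3.13 FPKM. Lrp1, an endocytic receptor, was above wild type in both other libraries, with 3.40, 15.1 and 8.55 FPKM.

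Mrc1 (chromosome 2, 14229414 to 14332023, 30 exons) encodes the mannose receptor CD206, an endocytic lectin of tissue macrophages. It was at 0.827 FPKM in wild type and 2.44 in gl/gl, with 0.288 in CD2-Ostm1 gl/gl. The difference was 0.91 for gl/gl and -0.50 for CD2-Ostm1 gl/gl against wild type, and -1.42 between CD2-Ostm1 gl/gl and gl/gl. On the log2(FPKM + 1) scale Mrc1, Mertk and Axl lay close together: distances between their centred values were 0.0655 between Mertk and Axl, 0.118 between Mertk and Mrc1 and 0.169 between Axl and Mrc1, the smallest of all pairs among the 10 genes. This closeness holds for that scale, on which adding 1 FPKM compresses low values. With 0.1 FPKM added instead, the differences between CD2-Ostm1 gl/gl and gl/gl were -3.32 for Mertk, -2.71 for Mrc1 and -1.50 for Axl.

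Most other lectins and scavenger receptors were higher in gl/gl. Of 24 measured, 13 were higher and 2 lower than in wild type (median 1.05). The C-type lectins Clec4a3 and Clec4a2, inhibitory receptors of myeloid cells by family, were at 14.2 and 11.7 FPKM in gl/gl against 1.16 and 0.532 in wild type and 0.777 and 0.659 in CD2-Ostm1 gl/gl. Clec7a, the beta-glucan receptor Dectin-1, was at 1.64, 11.6 and 1.19 FPKM. Cd163, the haemoglobin scavenger receptor, ran the other way, with 2.26 FPKM in wild type and 0.395 in gl/gl, then 2.39 in CD2-Ostm1 gl/gl. Stab2 was the other lower gene. Against wild type, CD2-Ostm1 gl/gl had 1 higher, Lrp1, and 1 lower, Stab2 (median -0.01). Against gl/gl 2 were higher and 14 lower (median -1.06).

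Lyz2 (chromosome 10, 117277541 to 117282272, minus strand, 4 exons) encodes lysozyme M, the antibacterial enzyme of monocytes, macrophages and granulocytes. It was the most abundant of the 10 genes in wild type and in gl/gl, with 91.7 FPKM in wild type and 1038 in gl/gl, then 71.3 in CD2-Ostm1 gl/gl. The gl/gl library was far above both others. The differences were 3.49 for gl/gl and -0.36 for CD2-Ostm1 gl/gl against wild type, and -3.84 between CD2-Ostm1 gl/gl and gl/gl. In gl/gl Lyz2 ranked 87th from the top of 12849 genes by its difference from wild type, and its level lay at percentile 99.2 of measured genes, against 93.6 in wild type and 92.8 in CD2-Ostm1 gl/gl.

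Lyz1, the neighbouring copy that encodes lysozyme P, was at 9.46 FPKM in wild type and 93.1 in gl/gl, with 6.48 in CD2-Ostm1 gl/gl. The ratio of Lyz2 to Lyz1 was close in the 3 libraries, at 9.69, 11.1 and 11. The transcripts are near copies: 15.4% of the 50-base windows of the Lyz2 transcript also occur in that of Lyz1, so reads may be shared and the separate values are uncertain. With both genes summed, the differences of Lyz2 became 3.47, -0.37 and -3.84. The 250 bases before each start are shown because of this likeness (Lyz2 at chr10:117282273-117282522 and Lyz1 at chr10:117292869-117293118, GRCm38.p6, minus strand); capitals mark a match to TTGCNNAA, a form of the C/EBP site, in either orientation.
Lyz2: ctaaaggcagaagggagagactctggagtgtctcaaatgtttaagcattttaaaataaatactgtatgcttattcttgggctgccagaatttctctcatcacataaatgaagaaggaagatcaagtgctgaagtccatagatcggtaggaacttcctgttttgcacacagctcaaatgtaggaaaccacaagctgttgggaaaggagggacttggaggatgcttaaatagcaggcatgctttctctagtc
Lyz1: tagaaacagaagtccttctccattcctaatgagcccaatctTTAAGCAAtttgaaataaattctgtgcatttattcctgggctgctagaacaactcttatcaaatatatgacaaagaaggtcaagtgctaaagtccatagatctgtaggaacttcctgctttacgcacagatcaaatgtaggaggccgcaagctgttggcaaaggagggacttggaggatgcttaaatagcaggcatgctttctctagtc
The aligned stretches were identical at 79.4% of positions. The C/EBP letters were found before Lyz1, at -209 to -202 from its start, and not before Lyz2, and 10.8% of all promoter windows held them.

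All 15 other genes of the list of antibacterial phagocyte proteins were higher in gl/gl than in wild type (median 1.95), and all 15 were lower in CD2-Ostm1 gl/gl than in gl/gl (median -2.47). Between CD2-Ostm1 gl/gl and wild type only Lgals3 passed 2-fold (median -0.21). Ltf, lactoferrin, was at 7.12 FPKM in wild type and 736 in gl/gl, with 10.8 in CD2-Ostm1 gl/gl. Camp, the cathelicidin, was at 15.6, 1126 and 16.7 FPKM. Both are proteins of neutrophil granules. Cybb, a subunit of the NADPH oxidase of neutrophils and macrophages, was at 7.59, 144 and 10.7 FPKM.

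Vcan (chromosome 13, 89655310 to 89742512, minus strand, 15 exons) encodes versican, a hyaluronan-binding proteoglycan that classical monocytes express. It was at 0.190 FPKM in wild type and 4.24 in gl/gl, with 0.785 in CD2-Ostm1 gl/gl. Wild type was thus the lowest library, as for Csf1r and unlike the other 8 genes. As a plain ratio Vcan was 22.4 times the wild type level in gl/gl and 4.14 times in CD2-Ostm1 gl/gl. On the log2(FPKM + 1) scale the differences were 2.14 and 0.59, and -1.55 between CD2-Ostm1 gl/gl and gl/gl. Of 18 other genes of lecticans and hyaluronan binding only 3 were measured, Has3, Cd44 and Hmmr, and none passed 2-fold in any comparison, with medians of 0.24, -0.04 and 0.53 for gl/gl against wild type, CD2-Ostm1 gl/gl against wild type and CD2-Ostm1 gl/gl against gl/gl.

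Ly6c2 (chromosome 15, 75108161 to 75111949, minus strand, 4 exons) encodes the surface antigen by which classical monocytes of the mouse are gated, and lymphoid cells can carry it too. It was at 84.0 FPKM in wild type and 405 in gl/gl, with 75.3 in CD2-Ostm1 gl/gl, which gives differences of 2.25 and -0.16 from wild type and -2.41 between CD2-Ostm1 gl/gl and gl/gl. The close copy Ly6c1 was at 3.64, 28.2 and 4.49 FPKM. Of the 50-base windows of the Ly6c2 transcript, 32.6% also occur in transcripts of Ly6c1, so these values are uncertain as separate ones. Summed with Ly6c1, the differences of Ly6c2 were 2.29, -0.13 and -2.43. The 250 bases before the most upstream RefSeq start of each gene are given for comparison (Ly6c2 at chr15:75111972-75112221 and Ly6c1 at chr15:75048838-75049087, GRCm38.p6, minus strand), with GAGGAAGT in capitals.
Ly6c2: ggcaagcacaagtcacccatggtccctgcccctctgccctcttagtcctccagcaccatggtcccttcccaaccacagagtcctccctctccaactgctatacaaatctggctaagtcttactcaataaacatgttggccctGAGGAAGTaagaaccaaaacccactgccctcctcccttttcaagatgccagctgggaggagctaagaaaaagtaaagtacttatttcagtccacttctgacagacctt
Ly6c1: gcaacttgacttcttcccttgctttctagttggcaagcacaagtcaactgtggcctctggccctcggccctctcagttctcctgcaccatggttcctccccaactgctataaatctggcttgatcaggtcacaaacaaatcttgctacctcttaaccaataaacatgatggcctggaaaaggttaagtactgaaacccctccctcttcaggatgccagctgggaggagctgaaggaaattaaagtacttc
These stretches were identical at 57.7% of aligned positions. The PU.1 letters stood at -108 to -101 from the Ly6c2 start, with a second match after the start, and were not found before Ly6c1. Of the 8 genes among the 10 whose promoter windows were searched, all but C1qa and Csf1r, C1qc and Ly6c2 held these letters, and none held the letters of the C/EBP, IRF (GAAA, any 2 bases, GAAA) or MAF (TGCTGAC) sites, which 10.8%, 3.44% and 4.67% of all windows held. The windows ranged from 0 CpG dinucleotides for Ly6c2 and 1 for Lyz2 to 12 for Vcan and 14 for Mertk, beside a median of 7 over all windows.

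The Ly6 cluster differed from the surroundings of the other genes in how many neighbours were higher. Of the 6 measured entries that start within 250 kb of Ly6c2, 4 were higher in gl/gl than in wild type, all of them Ly6 genes (Ly6i, Ly6a, Ly6c1 and Ly6f), and the same number were lower in CD2-Ostm1 gl/gl than in gl/gl. The shares over all measured genes were 8.16% higher and 9.82% lower in these comparisons. Ly6a, which encodes the progenitor antigen Sca-1, was at 85.4 FPKM in wild type and 188 in gl/gl, with 64.2 in CD2-Ostm1 gl/gl. Ly6e, in the same region, was at 483, 464 and 335 FPKM and passed 2-fold in no comparison. Over the whole Ly6 family, 5 of 10 other measured genes were higher and 1, Ly6k, was lower in gl/gl (median 0.86), 1, Ly6g5b, was lower in CD2-Ostm1 gl/gl than in wild type (median -0.15), and 5 were lower than in gl/gl (median -1.09). Ly6 genes resemble each other in sequence, and the single values are uncertain for that reason.

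Counted together, 6 of the 10 genes were at least 2-fold higher in gl/gl than in wild type, against 8.16% of all measured genes, and none was lower, against 6.15%. The median difference of the 10 was 1.23, ranging from 0.48 for Csf1r to 3.49 for Lyz2, beside -0.03 over all genes. In CD2-Ostm1 gl/gl against wild type none was higher, against 1.34% of all genes, and 2 were lower, C1qa and C1qc, against 1.67%. The median was -0.35, ranging from -1.74 for C1qc to 0.59 for Vcan, beside -0.04. By any amount, 8 of the 10 were below wild type in CD2-Ostm1 gl/gl, as were 55.2% of all genes. For the same 8 genes CD2-Ostm1 gl/gl was the lowest library, as for 32.2% of all genes. In CD2-Ostm1 gl/gl against gl/gl 9 were lower, against 9.82% of all genes, none was higher, against 6.47%, and the median was -1.98 beside 0.02. Each pair of these comparisons shares a library, so the counts are not independent of each other. Mertk, Mrc1 and Vcan, among the 9 lower genes, passed the 1 FPKM filter through gl/gl alone, and Vcan is also among the 6 higher ones. The 10 genes were chosen with earlier results of these data known, so the shares over all genes are description and no test.

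**Figure D2:**
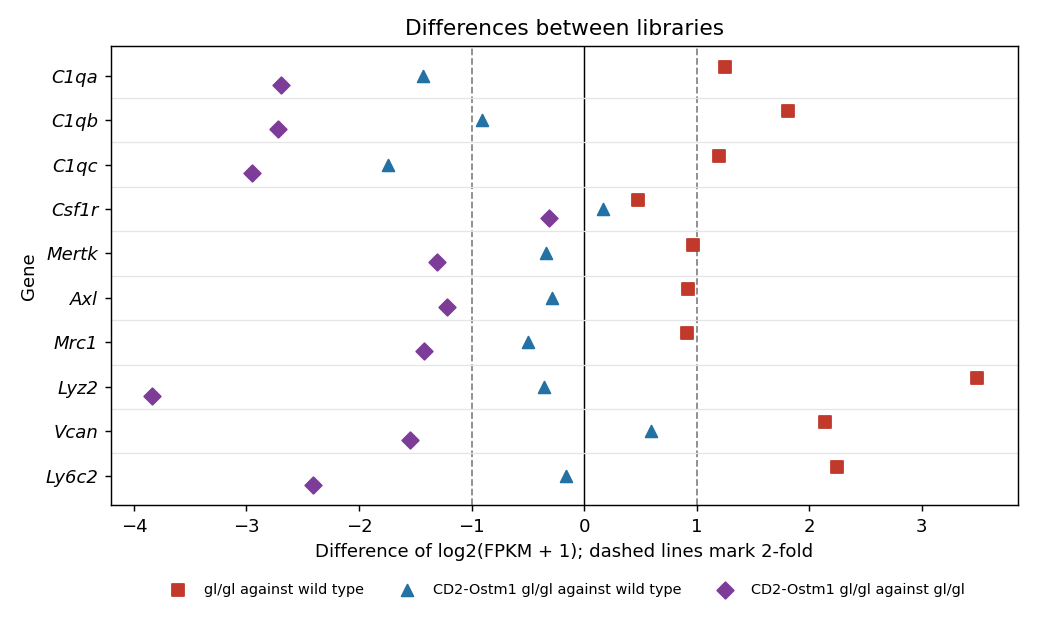
Difference of log2(FPKM + 1) for each gene (rows) in the 3 comparisons, with 1 point per comparison and dashed lines at 2-fold. The squares of gl/gl against wild type lie right of 0 for all 10 genes, from 0.48 to 3.49, and the triangles of CD2-Ostm1 gl/gl against wild type pass the left dashed line for C1qa and C1qc only.

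Of 23 measured transcription factors of monocytes and macrophages, 6 were higher and 1 lower in gl/gl than in wild type (median 0.73). In CD2-Ostm1 gl/gl 1 was higher and 1 lower than in wild type (median -0.16), and 1 was higher and 9 were lower than in gl/gl (median -0.95). Sfpi1, the table's name for the PU.1 gene, was at 35.6 FPKM in wild type and 61.8 in gl/gl, with 28.5 in CD2-Ostm1 gl/gl, and passed 2-fold only between the last 2, with -1.09. Cebpb, a C/EBP factor of inflammatory myeloid cells, was at 12, 57.2 and 8.82 FPKM. Spib, a relative of PU.1 in B cells and plasmacytoid dendritic cells, was at 6.95, 40.4 and 16.7 FPKM and was the gene above wild type in CD2-Ostm1 gl/gl. Batf3, of dendritic cells, was the gene below it, with 5.69, 2.45 and 0.794 FPKM.

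**Figure D3:**
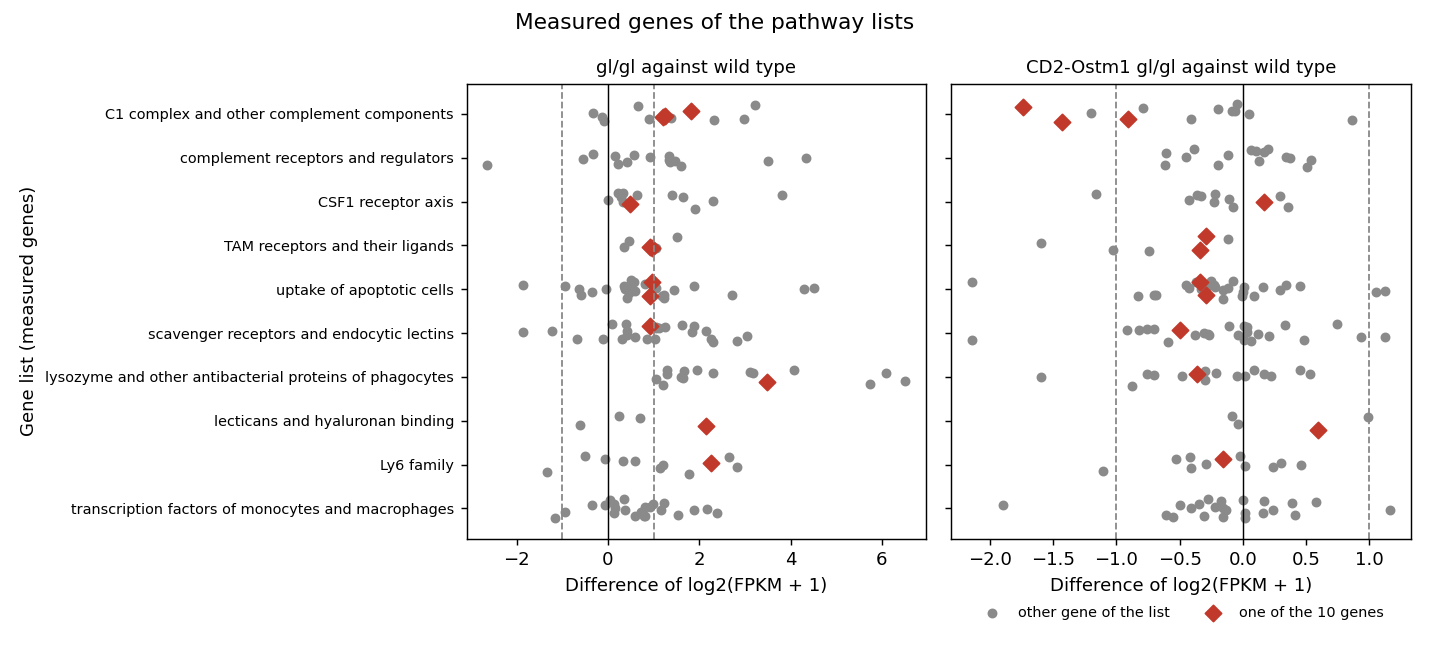
Difference of log2(FPKM + 1) for each measured gene (points, spread vertically within a row for legibility) of the 10 pathway lists, for gl/gl against wild type on the left and CD2-Ostm1 gl/gl against wild type on the right, with different horizontal ranges and dashed lines at 2-fold. Red diamonds are the 10 genes described here. On the left all genes of the antibacterial list lie beyond the right dashed line, and on the right most points of every list lie between the dashed lines.

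Marker lists of the cell types that a lineage-negative gate could hold were summed without the 10 genes. The tissue macrophage list summed to 89.2 FPKM in wild type and 553 in gl/gl, with 58.7 in CD2-Ostm1 gl/gl, most of it from Apoe, apolipoprotein E, with 63.6, 465 and 38.5 FPKM. Of its 14 measured genes 10 were higher and 1, Cd163, was lower in gl/gl than in wild type (median 1.46), 1, Vcam1, was lower in CD2-Ostm1 gl/gl than in wild type (median -0.13), and 1 was higher and 11 were lower than in gl/gl (median -1.39). The list held both low and higher genes. Examples of low ones, picked after their values were seen, follow: Vsig4 and Lyve1 were listed at 0 in wild type and were at 0.161 and 0.218 FPKM in gl/gl, Lyve1 was at 0 in CD2-Ostm1 gl/gl, Siglec1 reached 0.706 FPKM, and Emr1, the gene of F4/80, was at 0.738, 5.52 and 0.763 FPKM. Other genes of the list were higher in each library, such as Cd68, a lysosomal protein of phagocytes, with 5.11, 17.9 and 6.67 FPKM, and Cx3cr1, the fractalkine receptor, with 7.57, 12.3 and 5.17 FPKM.

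The classical monocyte list summed to 671, 1764 and 391 FPKM in the same order of libraries, and 8 of 11 genes were higher and none lower in gl/gl than in wild type (median 3.37). Cd14, the lipopolysaccharide co-receptor, was at 1.43, 36.3 and 0.850 FPKM. Ccr2, the receptor with which monocytes leave the marrow, was at 71.5, 126 and 38.7 FPKM and did not pass 2-fold in gl/gl. Of this list 1, S100a4, was lower in CD2-Ostm1 gl/gl than in wild type (median -0.15) and 10 were lower than in gl/gl (median -2.46). The nonclassical monocyte list summed to 319, 376 and 292 FPKM, with 3 of 9 higher in gl/gl than in wild type (median 0.43), none past 2-fold in CD2-Ostm1 gl/gl against wild type (median -0.13) and 5 lower against gl/gl (median -1.11).

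The granulocyte list differed most between libraries, with sums of 404, 29219 and 436 FPKM and 13 of 15 genes higher and 2 lower in gl/gl (median 6.19). Lyz2, Vcan and Ly6c2, the genes with the greatest differences in gl/gl, were high together with this list in that library, and its part in their values was not tested. In CD2-Ostm1 gl/gl the granulocyte list had 1 gene higher than in wild type and none lower (median 0.15), and 1 higher and 13 lower than in gl/gl (median -5.99). In that library the C1q genes were below wild type and the granulocyte sum was 436 FPKM against 404. The largest genes of this sum did not move together. Mpo was at 179.9 FPKM against 152 in wild type, S100a8 at 103 against 109.7 and S100a9 at 80.7 against 82.6. Mpo was also 1 of the 2 genes of the list that were lower in gl/gl, with 9.71 FPKM. A link between the C1q genes and this list was not tested. The osteoclast list summed to 79.0, 325 and 83.3 FPKM. Mmp9, a gelatinase that stands in the granulocyte list too, was at 1.19, 159 and 1.16 FPKM, and Acp5, the tartrate-resistant phosphatase that macrophages also make, at 20.2, 80.9 and 22.8. Of its 6 measured genes 3 were higher in gl/gl (median 0.76), none passed 2-fold in CD2-Ostm1 gl/gl against wild type (median -0.05) and 3 were lower against gl/gl (median -0.92). Calcr, the calcitonin receptor, was at most 0.0276 FPKM and was listed at 0 in gl/gl, Ctsk, cathepsin K, reached 0.551 FPKM, and Atp6v0d2, a proton pump subunit, was at 0.305, 1.62 and 0.102 FPKM.

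Some genes of other lists were, like the C1q genes, lower in CD2-Ostm1 gl/gl than in wild type. The dendritic cell list summed to 1235, 1759 and 542 FPKM, with 2 of 16 genes higher and 1 lower in gl/gl than in wild type (median 0.27), 1 higher and 7 lower in CD2-Ostm1 gl/gl than in wild type (median -0.77), and 2 higher and 8 lower than in gl/gl (median -0.98). Most of the sum came from H2-Aa, H2-Ab1, H2-Eb1 and Cd74, which are among these 7, with 471, 668 and 148 FPKM for Cd74. Siglech was the gene above wild type in CD2-Ostm1 gl/gl, with 6.20, 69.3 and 19.0 FPKM. Among all measured genes, 8.16% were higher and 6.15% lower in gl/gl, and 1.67% were lower in CD2-Ostm1 gl/gl than in wild type. Thymic stroma markers summed to 109, 109.7 and 104 FPKM, but this sum joins opposite orders. Pdgfrb, given above, and Pecam1, an endothelial adhesion molecule with 29.5, 21.5 and 35.9 FPKM, made up most of it in wild type and CD2-Ostm1 gl/gl and were lowest in gl/gl. Of 10 measured, 3 were higher and 1 lower in gl/gl (median 0.75), 3 were lower in CD2-Ostm1 gl/gl than in wild type (median -0.45), and 1 was higher and 7 were lower than in gl/gl (median -1.30). The keratins of thymic epithelium had the order of the C1q genes, with 12.5, 42.2 and 4.65 FPKM for Krt18, 9.93, 17.1 and 3.56 for Krt8, and 4.02, 8.09 and 0.325 for Krt5. The part of these cell types in the C1q values was not tested.

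The remaining lists were of lymphoid, progenitor, mast and erythroid cells. Early thymic progenitor genes summed to 679, 306 and 678 FPKM, with 12 of 15 lower and none higher in gl/gl (median -1.39), 1 lower in CD2-Ostm1 gl/gl than in wild type (median 0.02), and 11 higher and 1 lower than in gl/gl (median 1.41). T cell genes summed to 1132, 1219 and 801 FPKM and had 3 of 13 lower in gl/gl (median 0.05), 1 lower in CD2-Ostm1 gl/gl than in wild type (median -0.31), and 3 higher and 2 lower than in gl/gl (median -0.32). B cell genes summed to 55.9, 195 and 96.6 FPKM, with 6 of 9 higher and 2 lower in gl/gl (median 1.77), 2 higher in CD2-Ostm1 gl/gl than in wild type (median 0.89), and 2 higher and 4 lower than in gl/gl (median -0.74). The lymphoid and progenitor lists thus did not follow a common order over the libraries. Natural killer cell genes summed to 401, 860.4 and 334 FPKM, with 5 of 8 higher in gl/gl (median 1.08), 2 lower in CD2-Ostm1 gl/gl than in wild type (median -0.23) and 8 lower than in gl/gl (median -1.46). Mast cell and basophil genes summed to 203, 40.1 and 46.0 FPKM, with 1 of 9 higher and 7 lower in gl/gl (median -4.11), 6 lower in CD2-Ostm1 gl/gl than in wild type (median -3.21), and 2 higher and 1 lower than in gl/gl (median 0.46). Erythroid genes summed to 82.6, 19.8 and 51.6 FPKM, with 3 of 4 measured lower in gl/gl (median -1.54), 2 lower in CD2-Ostm1 gl/gl than in wild type (median -0.87) and 1 higher than in gl/gl (median 0.52). The globins Hba-a1 and Hbb-b1 of this list had no line of their own and were left out. The joint entry of Hba-a1 and Hba-a2 was at 3.70, 10.9 and 0.588 FPKM, so it was highest in gl/gl, unlike the erythroid sum.

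**Figure D4:**
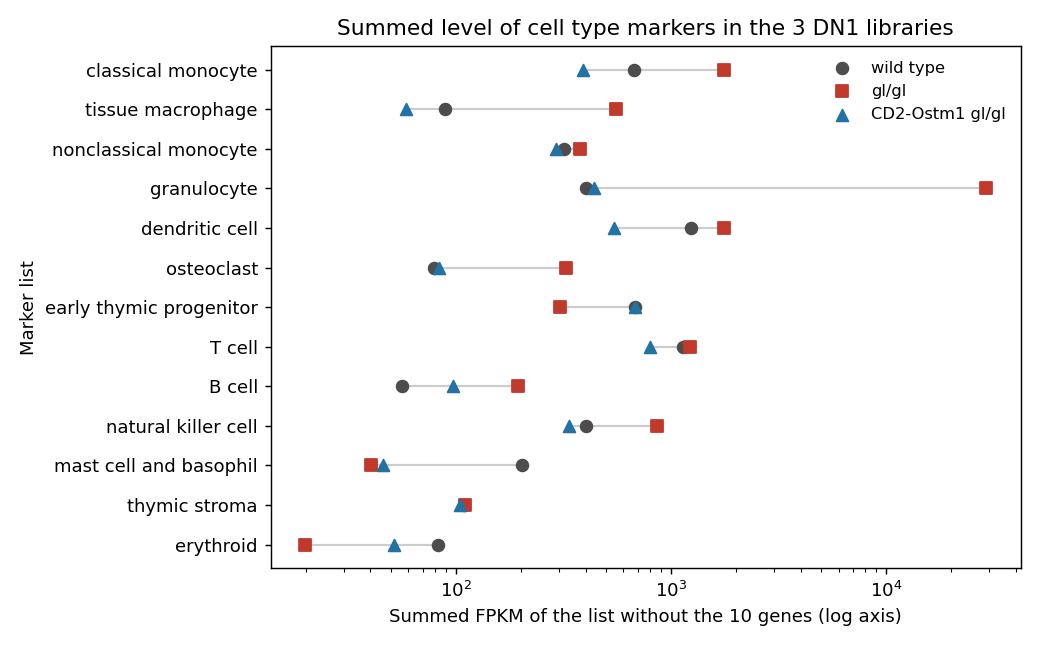
Summed FPKM (log axis) of each cell type marker list without the 10 genes, with 1 point per library and a grey line from the lowest to the highest sum. The granulocyte list spans 404 to 29219 FPKM, and the tissue macrophage list has its highest sum in gl/gl (553) and its lowest in CD2-Ostm1 gl/gl (58.7).

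The genes with the most similar profiles were sought among 9533 others at 5 FPKM or more in at least 1 library, by the distance of centred log2(FPKM + 1) values over the 3 libraries. With only 3 values a gene, close profiles are frequent and describe these libraries only. Nearest to the mean of the C1q genes were the joint entry of the alpha-globins Hba-a1 and Hba-a2 (distance 0.146), Krt18 (0.182), Vcam1 (0.226), an adhesion molecule of macrophages and stroma, Cd63 (0.234), a tetraspanin of late endosomes, and Il1rl1 (0.237), the IL-33 receptor. Nearest to Lyz2 were Trnp1 (0.140) and Il1b (0.191), which encodes interleukin 1 beta. Nearest to Ly6c2 were F13a1 (0.0217), coagulation factor XIII of monocytes, and Cd300ld (0.0675), and nearest to Vcan were Ovgp1 (0.00724) and Gas7 (0.0336). For Csf1r they were Stk38 (0.00886) and Parp14 (0.00966), for Mertk Vasp (0.00275) and Socs1 (0.0257), for Axl Dnaja4 (0.00528) and Gadd45a (0.00682), and for Mrc1 Tpd52 (0.0183) and Cdh1 (0.0236). Vcam1 and F13a1 stand in the macrophage and the classical monocyte list, and Krt18 in the stroma list. Hba-a1 belongs to the erythroid list but was not counted there, since it had only the joint entry. The other genes were in none of the lists described above.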

How the data were processed

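RNA was sequenced from 3 pools of sorted DN1 cells, with 1 library per genotype. The deposited table holds values read here as FPKM computed by the authors, although its header does not name the unit. Per the submitters' processing notes, TopHat2 2.0.10, Cuffdiff 2.2.1 and the mm10 build were used. The annotation, the use of strand and the treatment of reads that map to several places were not given in the sources used here. FPKM from such a pipeline depend on how reads shared by gene copies are divided. Total read counts are not known, so numbers of fragments are rough estimates from the lowest values that assume fragments of 200 bases.

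Of 23352 lines, 1 was empty and 3 held a cell that is no number, which left 23348, of which 98 name more than 1 gene. Starts in the table count from 0 and are printed counted from 1. Differences of log2(FPKM + 1) were computed with Python 3.11.15, pandas 2.3.3 and NumPy 2.4.6 and drawn with matplotlib 3.10.9. Genes with 1 FPKM or more in any library were taken as measured. No test was run, since there are no replicates. The counting code was tested on simulated data.

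The members and lists were chosen with earlier results of these data known. All 10 members are named, with up to 6 genes of each pathway list by greatest difference, 13 fixed partner genes and the nearest profiles. Some genes that this rule names are not reported here. Other genes named (single exceptions to a count, neighbours and markers) were picked after their values were seen. Promoter windows are from RefSeq (GRCm38.p6, 250 bases before and 50 after a start) and were aligned with Biopython 1.88. Transcripts of gene copies are from GENCODE. Protein sequences were not used here. Alternatives were the pseudocount, scaling, the filter, the fold threshold and summed gene copies.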

Additional observations from a re-analysis of the deposited data

How the results depend on the processing

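No difference past 2-fold changed sign under the alternatives run, but most of them could not change it. The pseudocount, the filter and the threshold leave the sign of a difference fixed. The rescaling divisors lay between 0.967 and 1.02, too close together to reverse a 2-fold difference. With a pseudocount of 5, 3 of the 10 genes instead of 6 were at least 2-fold higher in gl/gl than in wild type, 0 instead of 2 were lower in CD2-Ostm1 gl/gl than in wild type, and 5 instead of 9 were lower in CD2-Ostm1 gl/gl than in gl/gl. The shares over all genes were then 4.05%, 0.708% and 4.93%. A threshold of 4-fold gave the same counts, 3, 0 and 5, beside 2.37%, 0.397% and 2.59% of all genes. With a pseudocount of 0.1, 9 genes were higher in gl/gl than in wild type, and 1 was higher and 5 were lower in CD2-Ostm1 gl/gl than in wild type. These 5 were C1qa, C1qb, C1qc, Mertk and Mrc1, and the shares over all genes were 11.3%, 3.93% and 3.31%. At 1.5-fold, 9 were higher in gl/gl, and 1 was higher and 3 were lower in CD2-Ostm1 gl/gl, beside 16.3%, 5.23% and 4.26% of all genes. The median difference of CD2-Ostm1 gl/gl from wild type, -0.35, became -0.77 with a pseudocount of 0.1 and -0.14 with 5. The median difference of CD2-Ostm1 gl/gl from gl/gl was -1.98 and became -2.89 with a pseudocount of 0.1, -1.24 with 5, and -2.69 over the 7 genes at 5 FPKM or more. Of 120 single-gene values under the 2 other pseudocounts and 2 rescalings, 104 kept their side of 2-fold, 9 lost it and 7 gained it. The lower call of C1qa and C1qc in CD2-Ostm1 gl/gl was lost with a pseudocount of 5 (-0.83 and -0.99). Low genes such as Mertk, Mrc1 and Vcan depend on the pseudocount by construction. No paired analysis was possible because each genotype has 1 library, and for the same reason no library could be left out. Depth limits Mertk most, with roughly 9 fragments in CD2-Ostm1 gl/gl.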
